A study of Mus musculus with 14 samples.

Results

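The bile acid and organic ion uptake carriers of mouse liver are described here through 8 genes, Slc10a1, Slc10a2, Slc10a5, Slco1a1, Slco1a4, Slco1b2, Slco2b1 and Slc22a7. They were chosen by name from the 54532 genes of the count table, all 8 passed the low-count filter, and 17874 genes were tested. RNA sequencing gave 14 libraries of liver from C57BL/6J mice, an inbred strain, at an age of 52 weeks. The groups were tumour tissue of female Abcb11-/- mice (n = 3), non-tumour liver of female Abcb11-/- mice (n = 3), liver of wild-type females (n = 2), liver of male Abcb11-/- mice (n = 3) and liver of wild-type males (n = 3). The wild-type females carry the numbers 2 and 3, and a number 1 is not analysed here. The labels name no treatment and do not say which part of Abcb11 was deleted, and for the males they do not say whether the tissue held tumours. The study's design text gives 3 mice per group, but the labels do not say whether tumour and non-tumour libraries of equal number came from the same mouse. P-values therefore measure the spread between these libraries.

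Bile salts return from the gut in portal blood and are taken up by hepatocytes across the sinusoidal membrane, the side of the cell that faces the blood. Conjugated bile salts enter mainly with sodium through NTCP, the product of Slc10a1, while carriers of the Slco family (OATPs) take up unconjugated bile acids, bilirubin, steroid conjugates and many drugs without sodium. The opposite step, from the hepatocyte into the bile canaliculus, is carried out by the bile salt export pump, the product of Abcb11. In cholestasis, when bile salts are held back in the liver, hepatocytes are known to alter both uptake and export carriers. Several mouse Slco1a genes are also known to differ between the sexes under the control of growth hormone and sex steroids.

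Abcb11 itself averaged 25.2 ± 8.34 CPM in tumours, 25.0 ± 9.61 in non-tumour liver of knockout females and 379 ± 154 in wild-type females, and 80.7 ± 21.0 CPM in knockout males against 309 ± 12.3 CPM in wild-type males (SD). CPM is a gene's count scaled to a fixed library total, with a TMM factor that evens out the bulk of genes between libraries. Library totals ran from 14745140 to 19480538 counts, and counts on mitochondrial genes took 15.7% of knockout male 3, 16.7% of non-tumour 3 and 19.1% of non-tumour 1, against 28.6% to 42.2% in the other 11. Summed over 14 markers, hepatocyte genes stood between 30177 CPM (wild-type male 3) and 98442 CPM (non-tumour 1), with no marker at 0. Beyond the groups, libraries stood apart in a pair of features. The first is the phase of the daily clock. Dbp, a clock output gene, was at 53.3 to 59.0 CPM in knockout males against 0 to 1.57 CPM in wild-type males, so that genotype and clock phase cannot be told apart in males. Among females, non-tumour 1 (1.57 CPM) and tumour 1 (3.71 CPM) were low as well, and the other 4 knockout libraries had 24.9 to 117 CPM against 18.5 and 32.9 CPM in wild type. The second is the acute phase response. Saa1, a serum amyloid gene of that response, was at 1299 CPM in tumour 1, 2685 CPM in non-tumour 1 and 243 CPM in wild-type male 1, and at 3.81 to 121 CPM in the other 11 libraries.

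Per kilobase of gene, the scale on which different genes can be compared, Slc10a1 and Slco1b2 led the 8 carriers in 3 of the 5 groups, and in the other two, tumour and non-tumour liver of knockout females, Slco1a4 stood between them. The 8 together summed to 133 ± 24.4 CPM per kb in tumours, 194 ± 5.83 in non-tumour knockout liver and 242 ± 13.4 in wild-type females, and to 257 ± 74.7 in knockout males against 180 ± 35.5 in wild-type males (SD). The tumour libraries (109 to 158) lay below the non-tumour ones (187 to 198), and these below the wild-type females (233 and 252), without overlap. The step from wild-type to non-tumour females was not shared by all 8. The mean of Slco1b2 went from 101 to 46.4 and that of Slc10a5 from 11.8 to 3.61. Slc10a1 stayed level (68.2 and 69.6), and the mean of Slco1a4 went up from 35.2 to 48.2. Knockout males (189 to 337) and wild-type males (153 to 220) overlapped.

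**Figure D1:**
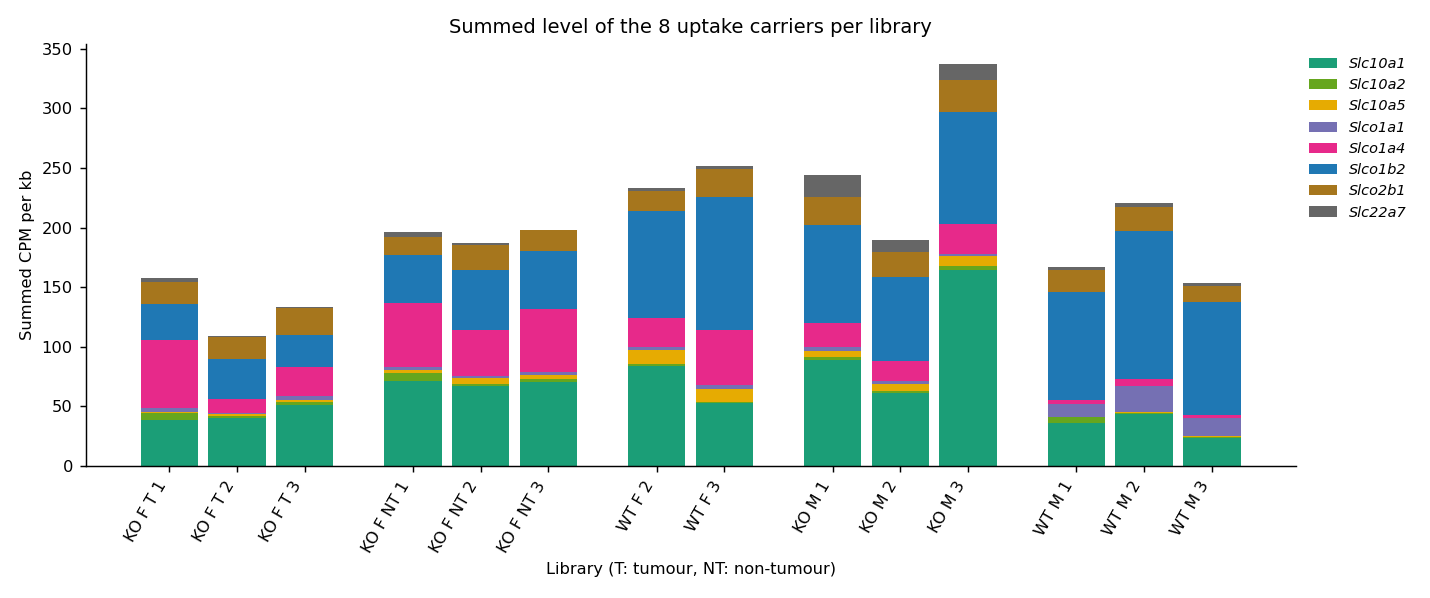
Summed level of the 8 uptake carriers in each library, in TMM-scaled CPM per kb of gene; each bar is 1 library and the colours split it by gene. Bars shorten across the female groups towards tumours, the bar of knockout male 3 is the tallest (337) through its Slc10a1, and only the wild-type male bars have a wide Slco1a1 band.

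The makeup of the sum differed too. In knockout males Slco1b2 held 32.9 ± 4.70% of the summed level and Slc10a1 39.0 ± 8.58%, while in wild-type males Slco1b2 held 57.6 ± 3.84% and Slc10a1 18.8 ± 3.29% (SD). In tumours Slco1b2 held 23.5 ± 6.11%, in non-tumour knockout liver 24.0 ± 3.37% and in wild-type females 41.6 ± 4.09%. Slco1a1 held 8.81 ± 1.99% in wild-type males and a mean of at most 2.0% in each other group.

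By mean level per kb in tumours the order was Slc10a1 (43.3), Slco1a4 (30.6), Slco1b2 (30.5), Slco2b1 (19.8), Slc10a2 (3.32), Slco1a1 (2.77), Slc22a7 (1.97) and Slc10a5 (1.25). The libraries of neighbouring genes overlapped in this order except between Slco1b2 and Slco2b1 and between Slco2b1 and Slc10a2. In wild-type females it ran Slco1b2 (101), Slc10a1 (68.2), Slco1a4 (35.2), Slco2b1 (19.8), Slc10a5 (11.8), Slc22a7 (2.65), Slco1a1 (2.57) and Slc10a2 (1.04), and there the only neighbours to overlap were Slc22a7 and Slco1a1. In wild-type males Slco1b2 (103) was followed by Slc10a1 (34.2), Slco2b1 (17.1), Slco1a1 (16.0), Slco1a4 (3.78), Slc22a7 (2.79), Slc10a2 (2.67) and Slc10a5 (0.286). By mean, Slco1a4 thus stood behind Slc10a1 alone in both knockout female groups, behind Slc10a1 and Slco1b2 in wild-type females, and behind Slc10a1, Slco1b2 and Slco2b1 in knockout males, while in wild-type males Slco1a1 was above it as well.

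**Figure D2:**
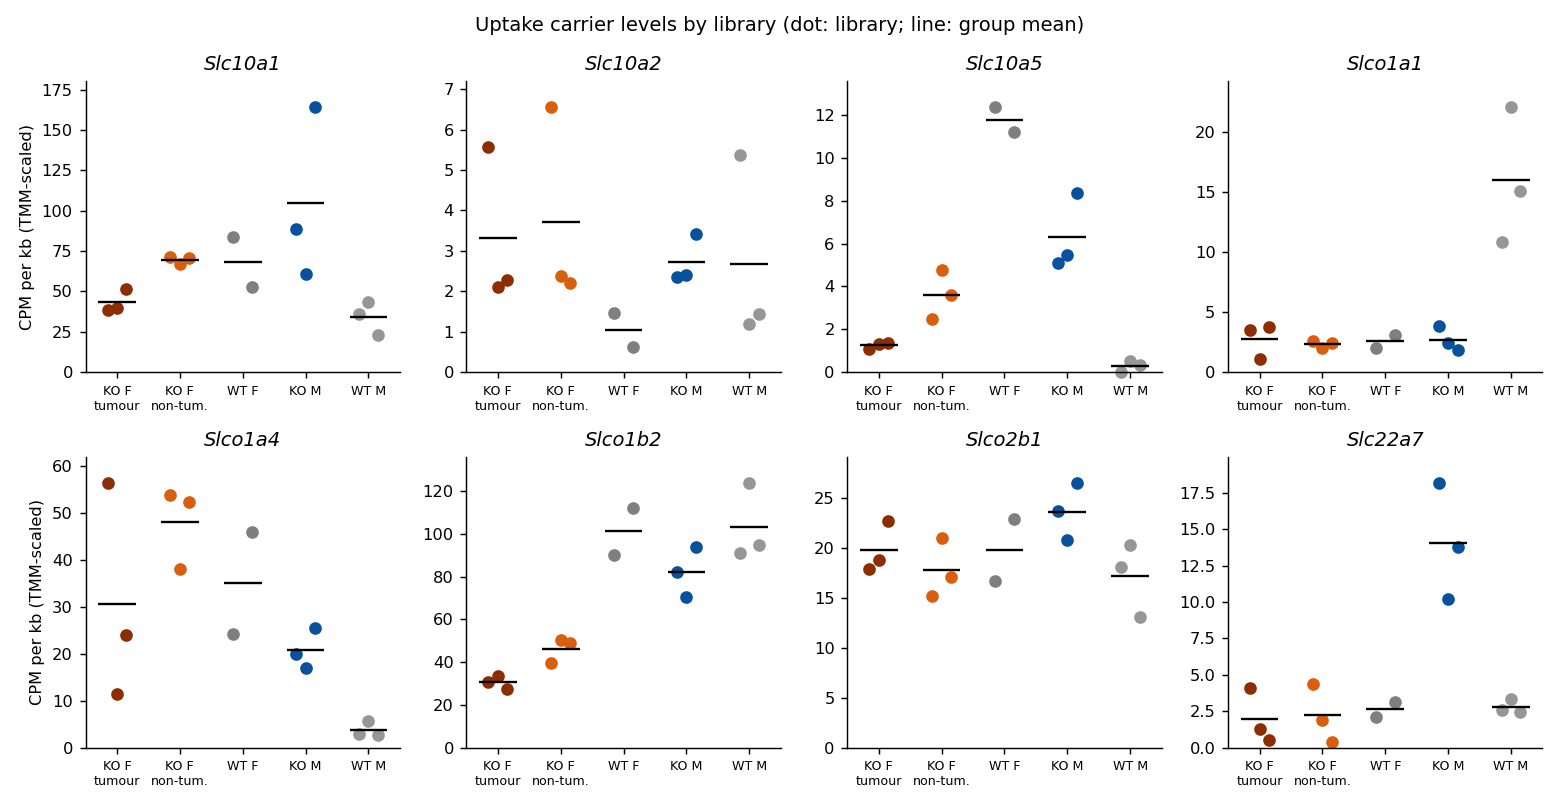
Level of each carrier in the 14 libraries, in TMM-scaled CPM per kb of gene; dots are libraries, lines are group means, and each panel has its own axis from 0. Slco1a1 is high in wild-type males alone, Slc22a7 in knockout males alone, and Slc10a5 is highest in wild-type females (11.2 and 12.4) and lowest in wild-type males (0 to 0.511).

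Across the comparisons, more of the 8 carriers passed the test of the knockout in males than in females, which is no test of a sex difference. In knockout against wild-type males 5 of 8 passed the test, 4 higher and 1 lower, where 20.6% of all tested genes did, 14.3% higher and 6.32% lower. In non-tumour knockout against wild-type females it was 1 of 8, against 4.16% of all genes, and in tumours against wild-type females 2 of 8, against 9.61%. These last 2 comparisons share their wild-type libraries, and each sets 3 libraries against 2, while the male one sets 3 against 3. None of the 8 passed between tumour and non-tumour liver, where no gene passed at all (0%). Without adjustment 6.81% of genes and 2 of the 8 had a p under 0.05 there, and DESeq2 called 29 genes, none of them a carrier. The test throughout was edgeR's quasi-likelihood F test in 1 fit of all libraries, 2-sided, with Benjamini-Hochberg adjustment over all tested genes and a threshold of 0.05. Each ± beside a log2 fold change is a standard error derived from that test. In males clock phase goes with genotype. With a score of clock genes as a covariate, chosen after seeing the data, 1 carrier (Slc22a7) and 205 genes passed in males. Slco1b2 kept its call in non-tumour against wild-type females with that covariate (edgeR adjusted p = 0.0301).

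Markers of other cells moved with the male contrast. The sum of 8 sinusoidal endothelial markers was 153 to 217 CPM in knockout against 322 to 485 CPM in wild-type males, with no marker at 0 in any library and Stab1, Clec4g and Pecam1 called lower. The hepatocyte sum was 67127 to 75717 CPM against 30177 to 63735 CPM, with 1 of its 14 markers called, Ass1, which was higher. Most of that sum came from Alb and Apoa1, which were not called. Each overlapped between the groups, Alb at 33610 to 41360 CPM in knockout against 15090 to 35830 CPM in wild-type males. Wild-type females had endothelial sums of 201 and 231 CPM, below those of wild-type males. Of 8 Kupffer cell markers Vsig4 (1.92 ± 0.52, edgeR adjusted p = 0.0175) and Cd5l (1.32 ± 0.40, edgeR adjusted p = 0.0292) were called higher in knockout males, and 6 were not called. Of 15 bile duct epithelium markers Krt7 was called lower (−1.97 ± 0.58, edgeR adjusted p = 0.0265), and 14 were not called. The part of all these markers in the differences of the carriers was not tested.

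Between the sexes, wild-type males against wild-type females had 3 of 8 carriers past the threshold, against 23.1% of all genes. This comparison and the one of knockout against wild-type males share the wild-type male libraries. In the knockouts, males against non-tumour females had 0 of 8, against 0.392% of all genes. Without adjustment 3 of the 8 and 9.69% of genes had a p under 0.05 in that comparison, and DESeq2 called 2 of the 8, Slco1b2 and Slc22a7. The effect of the knockout itself differed between the sexes for 2 of 8, Slc10a5 and Slco1a1, against 10.9% of all genes. That contrast is at once the change of the sex difference between genotypes, and it takes the knockout effect in non-tumour female liver minus that in males. Abcb11, the targeted gene, differed in it too (−1.99 ± 0.49, edgeR adjusted p = 0.0181). Its remaining level was higher in knockout males than in non-tumour knockout females (1.69 ± 0.33, edgeR adjusted p = 0.0404).

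**Figure D3:**
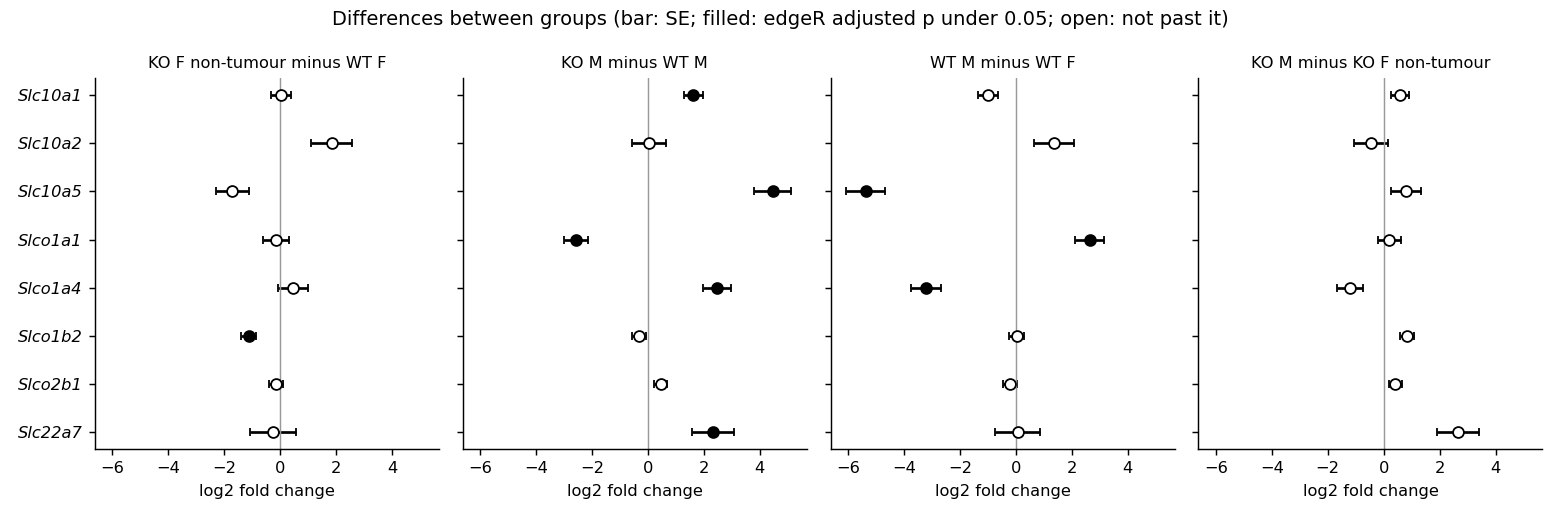
Log2 fold change of each carrier in 4 comparisons, with the first-named group of each panel title over the second; bars are standard errors, and filled dots passed an edgeR adjusted p of 0.05. The panel of knockout males over wild-type males has 5 filled dots and that of wild-type males over wild-type females has 3. These panels share the wild-type male libraries, as the second-named group in one and the first-named in the other.

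Slc10a1 (ENSMUSG00000021135, chromosome 12, 80953183 to 80968705, minus strand, GRCm38) encodes NTCP, the main sodium-dependent bile salt carrier of hepatocytes. It had 195, 134 and 360 CPM in knockout males 1, 2 and 3, against 78.7, 95.8 and 50.9 CPM in wild-type males. Every knockout male library lay above every wild-type one, and knockout male 3 stood far above the other two. The log2 fold change was 1.61 ± 0.34, a 3.06-fold higher level (edgeR adjusted p = 0.00464), and without knockout male 3 it was 1.13. With a score of clock genes as a covariate, chosen after seeing the data, the change was 1.24 and no longer passed (edgeR adjusted p = 0.369). In females the gene had 85.01, 87.9 and 113 CPM in tumours, 157, 147 and 155 CPM in knockout non-tumour liver, and 184 and 116 CPM in wild-type liver. Non-tumour libraries fell between the wild-type ones (0.03 ± 0.37, edgeR adjusted p = 0.98). The tumours lay below all other female libraries, with −0.68 ± 0.34 against non-tumour liver (edgeR adjusted p = 0.771). The knockout effect in females minus that in males was −1.58 ± 0.50 (edgeR adjusted p = 0.0541), past the threshold in 3 of 17 alternatives, and wild-type males against wild-type females gave −0.998 ± 0.37 (edgeR adjusted p = 0.0629).

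Slco1b2 (ENSMUSG00000030236, chromosome 6, 141629518 to 141686646, plus strand, GRCm38) encodes OATP1B2, the mouse counterpart of the human liver OATP1B carriers, which take up unconjugated bile acids and bilirubin. It had 152, 165 and 135 CPM in tumours, 196, 247 and 242 CPM in knockout non-tumour liver, and 445 and 553 CPM in wild-type females. The 3 female groups formed steps without overlap, tumours lowest and wild type highest. The share of all genes with such steps was not counted. Separation is common with so few libraries. Tumours lay below non-tumour liver without overlap for 7.64% of all genes, and non-tumour liver above wild type for 23.2%. In non-tumour liver the level fell to 0.458 of wild type (log2 fold change −1.13 ± 0.27, edgeR adjusted p = 0.0316). This call depends on single libraries, with an adjusted p of 0.133 without non-tumour 1, 0.0947 without non-tumour 3, 0.0688 without wild-type female 2 and 0.498 without wild-type female 3, while the change kept its direction (−1.27 to −0.92). In tumours it fell to 0.301 of wild type (−1.73 ± 0.27, edgeR adjusted p = 0.00206), and this passed in all 11 alternatives run. Tumour against non-tumour liver gave −0.61 ± 0.24 (unadjusted p = 0.0255, edgeR adjusted p = 0.677).

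In males Slco1b2 had 404, 347 and 463 CPM in knockout liver against 449, 610 and 468 CPM in wild-type liver. The male groups overlapped, at −0.33 ± 0.24 (edgeR adjusted p = 0.361). Wild-type males and wild-type females differed by 0.03 ± 0.27 (edgeR adjusted p = 0.955). The knockout effect in females minus that in males, −0.80 ± 0.36, did not pass (edgeR adjusted p = 0.166), and a fall in females alone is therefore not shown. The sum of 15 bile duct epithelium markers was 735 to 1451 CPM in tumours, against 499 to 633 CPM in non-tumour liver and 195 and 348 CPM in wild-type females. Most of it came from Spp1, osteopontin, and without that gene, left out after seeing the data, the sums of tumours (126 to 235 CPM) and non-tumour liver (145 to 167 CPM) overlapped, above wild-type females (83.5 and 100.2 CPM). In males the sum of all 15 was 111, 415 and 127 CPM in knockout males 1, 2 and 3, and 119 to 156 CPM in wild-type liver. No marker of the list was at 0 in a knockout female library, and 1 was at 0 in each wild-type female library and 2 or 3 in each male library. The part of these markers in the fall of Slco1b2 was not tested, and in bulk tissue fewer cells of a type and less RNA per cell cannot be told apart.

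Slco1a1 and Slco1a4 lie 51 kb apart on chromosome 6 in a cluster of Slco1 genes that spans 799 kb and also holds Slco1b2. Slco1a1 (ENSMUSG00000041698, 141907282 to 141946962, minus strand) encodes OATP1A1 and Slco1a4 (ENSMUSG00000030237, 141805440 to 141856199, minus strand) encodes OATP1A4, both carriers of organic anions and bile acids. Of the other protein-coding genes there, Slco1c1, Slco1a5, Slco1a6, Gm5724 and Gm6614 had 23, 46, 25, 45 and 140 counts in all 14 libraries together, and Iapp had none. The promoter windows of the 3 hepatocyte carriers of the cluster, 250 bases before to 50 after the start in RefSeq on GRCm38.p6, are shown with that of Slc10a1 because these genes of one hepatocyte function moved in different directions. A promoter entry was found for 6 of the 8 carriers. Capitals mark matches, on either strand, to the STAT5-type palindrome TTCNNNGAA or to the nuclear receptor half-site AGGTCA.

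Slco1b2, chr6:141629268-141629567, plus strand: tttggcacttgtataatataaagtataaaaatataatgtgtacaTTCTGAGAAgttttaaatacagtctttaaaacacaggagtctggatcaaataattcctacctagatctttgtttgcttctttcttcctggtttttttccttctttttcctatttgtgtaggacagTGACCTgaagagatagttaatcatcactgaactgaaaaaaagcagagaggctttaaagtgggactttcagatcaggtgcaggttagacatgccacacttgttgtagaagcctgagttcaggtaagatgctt
Slco1a1, chr6:141946913-141947212, minus strand: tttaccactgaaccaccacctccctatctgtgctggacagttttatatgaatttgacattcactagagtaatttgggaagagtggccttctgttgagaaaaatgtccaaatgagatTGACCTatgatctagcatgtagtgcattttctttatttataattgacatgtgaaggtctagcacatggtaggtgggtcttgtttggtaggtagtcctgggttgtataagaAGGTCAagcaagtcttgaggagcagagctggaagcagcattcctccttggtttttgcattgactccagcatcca
Slco1a4, chr6:141856171-141856470, minus strand: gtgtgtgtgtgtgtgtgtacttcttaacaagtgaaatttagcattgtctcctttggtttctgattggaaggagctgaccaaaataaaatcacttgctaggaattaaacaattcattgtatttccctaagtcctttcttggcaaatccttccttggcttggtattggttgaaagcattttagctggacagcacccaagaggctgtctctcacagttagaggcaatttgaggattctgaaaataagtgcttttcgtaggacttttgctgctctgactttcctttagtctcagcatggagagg
Slc10a1, chr12:80968656-80968955, minus strand: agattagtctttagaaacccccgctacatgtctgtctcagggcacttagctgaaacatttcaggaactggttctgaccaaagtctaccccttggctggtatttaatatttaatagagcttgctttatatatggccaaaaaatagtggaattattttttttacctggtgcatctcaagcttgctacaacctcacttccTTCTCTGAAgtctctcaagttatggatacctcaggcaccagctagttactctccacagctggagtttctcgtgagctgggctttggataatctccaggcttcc

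TTCNNNGAA occurs in 8.3% and AGGTCA in 16.3% of 32851 promoter windows of the same length. Slco1a1 has 2 matches to AGGTCA, Slco1b2 has 1 to each motif, Slc10a1 has 1 to TTCNNNGAA in the window shown and Slco1a4 has none. A second RefSeq window of Slc10a1, further into the gene at chr12:80968030-80968329, has 1 match to AGGTCA and none to TTCNNNGAA. The NRF2-type core TGACNNNGC (12.4% of windows) has no match in these 4 windows. A match describes letters in a window of 300 bases and is no evidence of a bound factor.

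Slco1a1 had 20.4, 12.9 and 9.55 CPM in knockout males against 57.3, 117 and 79.9 CPM in wild-type males. No knockout male library reached the lowest wild-type male. The level fell to 0.168 of wild type (log2 fold change −2.57 ± 0.43, edgeR adjusted p = 0.00124). Females had 18.5, 5.54 and 19.8 CPM in tumours, 13.6, 10.5 and 12.9 CPM in knockout non-tumour liver, and 10.6 and 16.5 CPM in wild-type liver, all within the range of knockout males but for the lower tumour 2. Wild-type males were 6.22-fold above wild-type females (2.64 ± 0.51, edgeR adjusted p = 0.0028), while in the knockouts males against non-tumour females gave 0.21 ± 0.42 (edgeR adjusted p = 0.965). The difference between these sex differences was tested as the difference of the knockout effect, 2.43 ± 0.64 (edgeR adjusted p = 0.0263). It lost the call without non-tumour 1 (adjusted p = 0.0545), wild-type female 2 (0.124), wild-type female 3 (0.0704), knockout male 2 (0.0545) or knockout male 3 (0.0536) and with the clock covariate (2.50, adjusted p = 0.164), always in the same direction, and passed in 11 of 17 alternatives.

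Slco1a4 ran the other way. It had 128, 109 and 163 CPM in knockout males against 18.6, 37.1 and 17.2 CPM in wild-type males. The groups stood wide apart, 5.50-fold higher in knockout males (2.46 ± 0.50, edgeR adjusted p = 0.00351). Females had 362, 73.2 and 154 CPM in tumours, 346, 245 and 336 CPM in knockout non-tumour liver, and 156 and 295 CPM in wild-type liver. Tumour 2 was the lowest of these and tumour 1 the highest, so that tumours overlapped both other groups (−0.66 ± 0.47 against non-tumour liver, edgeR adjusted p = 0.875, and −1.45 without tumour 1). Wild-type males were at 0.108 of wild-type females (−3.22 ± 0.54, edgeR adjusted p = 0.00102), and −2.61 without wild-type female 3, still past the threshold. Knockout males lay below every non-tumour knockout female library, at −1.21 ± 0.47 (unadjusted p = 0.0221, edgeR adjusted p = 0.385). The difference of the knockout effect, −2.01 ± 0.70, did not pass (edgeR adjusted p = 0.0779). It passed with DESeq2 (adjusted p = 0.047), in a fit of the 4 groups alone (0.0283) and without the low-count filter (0.00262), and was −1.35 without wild-type female 3.

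Within each library the ratio of Slco1a4 to Slco1a1, in counts per kb, does not depend on the scaling between libraries. In knockout males it was 5.17, 6.95 and 14.1, against 0.266, 0.262 and 0.177 in wild-type males. It was 16.1, 10.9 and 6.39 in tumours, 20.9, 19.2 and 21.4 in non-tumour knockout liver, and 12.1 and 14.7 in wild-type females. Every library but the wild-type males had more Slco1a4 than Slco1a1, and knockout males 1 and 2 had lower ratios than any non-tumour or wild-type female. On the log2 scale the means were 3.37 ± 0.67 in tumours, 4.36 ± 0.08 in non-tumour liver, 3.74 ± 0.20 in wild-type females, 2.99 ± 0.74 in knockout males and −2.11 ± 0.34 in wild-type males (SD).

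**Figure D4:**
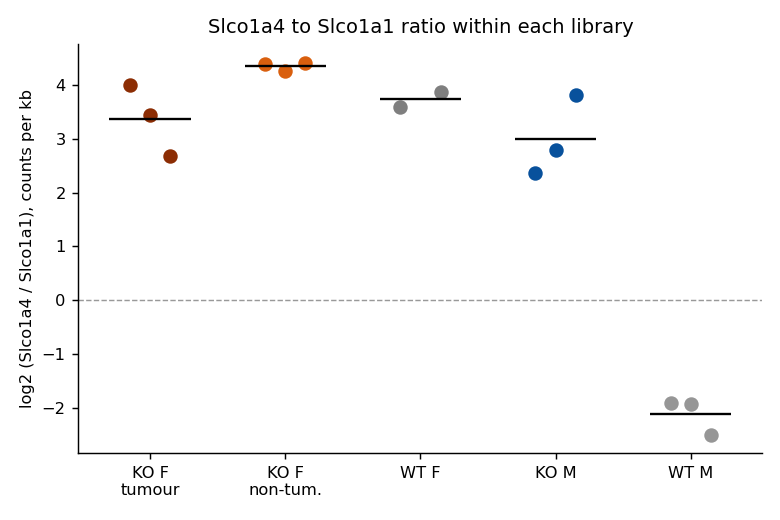
Log2 ratio of Slco1a4 to Slco1a1 within each library, in counts per kb of gene; dots are libraries and lines are group means. The wild-type males lie below 0 (mean −2.11) and the libraries of the other 4 groups all lie above 0.

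The clock phase moves with the male contrast and cannot be told apart from genotype there. With the clock score as a covariate, chosen after seeing the data, the changes between knockout and wild-type males stayed in direction but missed the threshold for Slco1a1 (−2.64, edgeR adjusted p = 0.0925), Slco1a4 (3.09, edgeR adjusted p = 0.0672) and Slc10a5 (3.56, edgeR adjusted p = 0.0938). Non-tumour 1 and tumour 1, the female libraries near the wild-type males in Dbp, had 13.6 and 18.5 CPM of Slco1a1 where wild-type males had at least 57.3 CPM. They had 346 and 362 CPM of Slco1a4 where wild-type males had at most 37.1 CPM. Both libraries differ from the wild-type males in sex and genotype too, so these values do not separate the clock from either. The part of the clock in the male differences was not tested. The sex differences of Slco1a1, Slco1a4 and Slc10a5 in wild type kept their calls with the covariate. Dbp also separated wild-type males (0 to 1.57 CPM) from wild-type females (18.5 and 32.9 CPM). Sex and clock phase therefore cannot be told apart in that comparison either, and the kept calls do not settle it.

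Slc10a5 (ENSMUSG00000058921, chromosome 3, 10331734 to 10335656, minus strand), a relative of NTCP with a single annotated exon and no well-established substrate, showed the widest range of the 8. It had 19.9, 21.5 and 32.8 CPM in knockout males against 0, 2.004 and 1.36 CPM in wild-type males. Wild-type male 1 had no count, which at its depth allows up to 0.194 CPM for a limit of 3 counts, counting error only. The log2 fold change was 4.46 ± 0.66, a 22.0-fold higher level (edgeR adjusted p = 0.000666), and 3.81 without wild-type male 1. Females had 4.20, 5.21 and 5.32 CPM in tumours, 9.71, 18.6 and 14.2 CPM in knockout non-tumour liver, and 48.5 and 44.1 CPM in wild-type liver. These were again 3 steps without overlap, for which the share of all genes was not counted.

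The tumours were at 0.106 of wild-type females (−3.23 ± 0.62, edgeR adjusted p = 0.00804), a call that missed the threshold without wild-type female 3 (adjusted p = 0.0798). Non-tumour liver against wild type gave −1.71 ± 0.60 (edgeR adjusted p = 0.12), past the threshold with DESeq2 (adjusted p = 0.031). Tumour against non-tumour gave −1.53 ± 0.56 (unadjusted p = 0.0177, edgeR adjusted p = 0.665), with no direction lost in any library left out. Wild-type males were far below wild-type females (−5.36 ± 0.70, edgeR adjusted p = 0.000267), and −4.70 without wild-type male 1. Knockout males against non-tumour knockout females gave 0.80 ± 0.55 (edgeR adjusted p = 0.744). The knockout effect in females minus that in males was −6.17 ± 0.88 (edgeR adjusted p = 0.00137), and −5.47 without wild-type male 1. It passed the threshold in all 17 alternatives, the clock covariate among them (−5.34, edgeR adjusted p = 0.0458). Clock phase goes with genotype in males, so that pass does not separate the clock from the knockout. Slc10a5 shares 268 exonic bases with Gm38303 on the same strand, where no strand setting can tell the reads of both genes apart, so its level carries that uncertainty.

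Slc10a2 (ENSMUSG00000023073, chromosome 8, 5083219 to 5105351, minus strand) encodes ASBT, the sodium-dependent bile acid carrier of the ileum and, in liver, of bile duct epithelium. It had 23.1, 8.75 and 9.43 CPM in tumours, 27.2, 9.91 and 9.18 CPM in knockout non-tumour liver, and 6.05 and 2.55 CPM in wild-type females. Males had 9.74, 9.94 and 14.1 CPM in knockout liver and 22.3, 4.94 and 5.95 CPM in wild-type liver. In tumours, non-tumour liver and wild-type males library 1 stood far above the other libraries of its group. Those 3, non-tumour 1, tumour 1 and wild-type male 1, were the highest of the 14 also in Saa1 and in Lrg1, another acute phase gene, which had 2460, 2151 and 1424 CPM in them. The next in Slc10a2, knockout male 3, came next in both others as well, with 827 CPM of Lrg1 and 121 CPM of Saa1. Over these same libraries Lrg1 and Saa1 had the highest Pearson's r with Slc10a2 of all genes compared (0.917 and 0.891). The agreement is thus a description of genes ranked on the same values, and a link to the acute phase was not tested. No comparison of Slc10a2 passed the threshold. Without the low-count filter 4 did, non-tumour (edgeR adjusted p = 0.00021) and tumour liver (0.000879) against wild-type females, males against females in wild type (0.00375) and the knockout effect in females minus that in males (0.00406). Among comparisons of groups the change furthest from 0 was 1.85 ± 0.74 in non-tumour knockout against wild-type females (edgeR adjusted p = 0.167), and 1.19 without non-tumour 1. It was 1.68 ± 0.73 in tumours against wild-type females (edgeR adjusted p = 0.161). The knockout effect in females minus that in males was 1.82 ± 0.94 (edgeR adjusted p = 0.225). All knockout female libraries lay above both wild-type females, as did those of 23.2% of all genes in the non-tumour comparison.

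**Figure D5:**
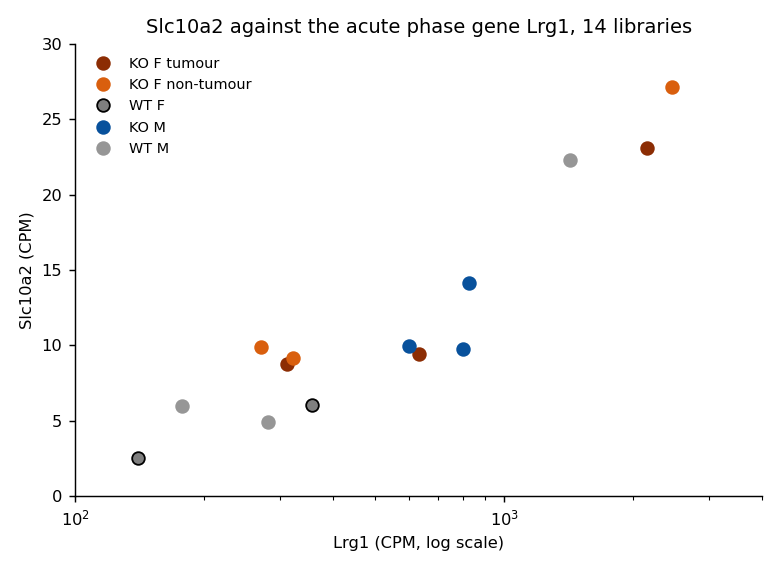
Level of Slc10a2 against that of the acute phase gene Lrg1 in the 14 libraries, both in TMM-scaled CPM, with Lrg1 on a log axis; each dot is a library, coloured by group. Non-tumour 1, tumour 1 and wild-type male 1 lie at the upper right, at 22.3 to 27.2 CPM of Slc10a2, apart from the other libraries of their groups. Lrg1 is the gene with the highest correlation with Slc10a2 over these same libraries.

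Slc22a7 (ENSMUSG00000067144, chromosome 17, 46432183 to 46438457, minus strand) encodes OAT2, an organic anion carrier of the sinusoidal membrane. It had 38.2, 21.4 and 28.9 CPM in knockout males against 5.43, 7.01 and 5.15 CPM in wild-type males. All 3 knockout male libraries lay far above the other 11. The level was 5.03-fold higher (2.33 ± 0.74, edgeR adjusted p = 0.0425), a call close to the threshold. It missed it with each of the 6 male libraries left out in turn (adjusted p of 0.0541 to 0.116, change of 2.10 to 2.51) and with RLE scaling (0.0518), and passed with DESeq2 (0.00853) and with the clock covariate (0.00432). The covariate moved the log2 fold change itself to 5.34, so that the size of the difference rests on how the clock is treated.

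In females Slc22a7 had 8.66, 2.68 and 1.12 CPM in tumours, 9.23, 3.98 and 0.814 CPM in knockout non-tumour liver, and 4.49 and 6.65 CPM in wild-type liver. Equally numbered tumour and non-tumour libraries were close to each other and both spanned the wild-type values. Non-tumour against wild-type females gave −0.26 ± 0.81 (edgeR adjusted p = 0.89). Knockout males against non-tumour knockout females gave 2.66 ± 0.75 (edgeR adjusted p = 0.194), past the threshold with DESeq2 (adjusted p = 0.00847), without the low-count filter (1.16e-09) and with the clock covariate (4.13, adjusted p = 0.0026). The difference of the knockout effect, −2.59 ± 1.08, did not pass (edgeR adjusted p = 0.138). It passed with the clock covariate (−5.90, adjusted p = 0.0167), with the replicate block (−3.30, adjusted p = 0.0407) and without the low-count filter (−2.44, adjusted p = 0.000243), and missed the threshold in the other 14 alternatives.

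Slco2b1 (ENSMUSG00000030737, chromosome 7, 99657804 to 99711340, minus strand) encodes OATP2B1, an organic anion carrier found in many tissues, and was the steadiest of the 8. It had 106, 112 and 135 CPM in tumours, 90.2, 125 and 102 CPM in knockout non-tumour liver, and 99.5 and 136 CPM in wild-type females. Knockout males had 141, 123 and 158 CPM against 108, 121 and 78.1 CPM in wild-type males, just without overlap (0.46 ± 0.23, edgeR adjusted p = 0.178). All 14 libraries lay within 78.1 to 158 CPM, and in no comparison or alternative did it pass the threshold. It shares 549 exonic bases with Gm15635 and Gm34280 on the opposite strand, whose reads can be told apart only by counting with strand, which the sources used here do not state. Of the 50-base words of Slco1a1 and Slco1a4, 1.64% and 1.61% also occur in other genes, their relatives among them, and none of those of Slco1b2 and Slc22a7 do.

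Between tumour and non-tumour liver, where equal numbers deviated together, the differences within a number were lower in tumours in 3 of 3 for Slc10a1 (−0.89, −0.74 and −0.46 on the log2 scale for numbers 1, 2 and 3), Slc10a5 (−1.19, −1.82 and −1.40) and Slco1b2 (−0.37, −0.59 and −0.85). For these 3 carriers all tumour libraries lay below all non-tumour ones, as did 7.64% of all genes. The 3 of 3 follows from that and is no second observation. The other 5 carriers had differences in both directions. With the number as a block none of the 8 passed and 1 gene of all did. The median change of the 8 was −0.39, beside −0.01 for all genes. Hepatocyte markers had a median change of −0.61 in the same comparison and bile duct epithelium markers one of 0.38, with none of either list called, and their part was not tested.

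Of 30 further genes of the Slc10, Slco and Slc22 families 21 were tested. In knockout against wild-type males 3 rose and 1 fell, shares close to the 14.3% and 6.32% of all genes. The organic cation carrier gene Slc22a3 rose to 19.7 CPM, against 3.99 CPM in wild type (2.31 ± 0.64, edgeR adjusted p = 0.0208), Slc22a4 rose to 5.37 CPM, against 1.86 CPM (1.53 ± 0.40, edgeR adjusted p = 0.014), and Slc22a12, a urate carrier gene known mainly from kidney, had no count in any wild-type male and stood at least 15.6-fold above a limit of 3 counts in each wild-type library. Slc22a5, the carnitine carrier, fell to 40.8 CPM, against 81.9 CPM (−1.005 ± 0.26, edgeR adjusted p = 0.0144). In non-tumour knockout against wild-type females 1 rose and 3 fell, where 1.9% and 2.26% of all genes did. Slc22a12 again had no count in wild type and was at least 6.03-fold higher, while Slc22a30 (−2.50 ± 0.45, edgeR adjusted p = 0.0134), Slc22a5 (−1.48 ± 0.29, edgeR adjusted p = 0.017) and Slc22a23 (−0.95 ± 0.25, edgeR adjusted p = 0.0441) fell. Slc22a5 and Slc22a12 thus passed in the same direction in both sexes, and none of the 8 carriers passed in both. The share of all genes that passed in both was not counted. With only 4.16% of all genes passing in females, the lack of such a carrier says nothing particular about the 8. The median change of the 21 was 0.03 in males and −0.41 in females, beside 1.04 and −0.15 for the 8 carriers.

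Of 14 genes of bile acid and lipid export, 7 rose and 1, Abcb11, fell in knockout against wild-type males, where 14.3% of all genes rose and 6.32% fell. The basolateral exporter gene Slc51b had no count in wild-type males and was at least 84.4-fold higher, and Atp8b1, a phospholipid flippase of the canaliculus, rose to 18.5 CPM, against 6.15 CPM (1.58 ± 0.26, edgeR adjusted p = 0.000964). In non-tumour knockout against wild-type females Slc51b rose to 9.29 CPM, against 0.262 CPM (edgeR adjusted p = 0.0256), and Abcb11 and Abcc6 fell, beside the 1.9% and 2.26% of all genes. The remaining 11 did not pass there.

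Of 24 transcription factors and signalling genes known to act on uptake carriers 23 were tested. In non-tumour knockout against wild-type females 7 fell and none rose, where 2.26% and 1.9% of all genes did, with the smallest p for Stat5a, which relays growth hormone signals (−1.74 ± 0.30, edgeR adjusted p = 0.0104), Ppara, a fatty acid receptor (−2.14 ± 0.38, edgeR adjusted p = 0.0118), and Ahr, the aryl hydrocarbon receptor (−1.16 ± 0.23, edgeR adjusted p = 0.017). In knockout against wild-type males 7 rose, beside 14.3% of all genes, among them Cebpa (1.16 ± 0.24, edgeR adjusted p = 0.00449) and the glucocorticoid receptor gene Nr3c1 (0.74 ± 0.20, edgeR adjusted p = 0.0158). The 1 that fell, singled out after its value was seen, was Nr1h4, the bile acid receptor FXR, at 137 CPM against 263 CPM (−0.94 ± 0.29, edgeR adjusted p = 0.0325). The knockout effect differed between the sexes for 9 of the 23, all with the female effect below the male one. Over all genes 10.9% differed and 8.68% did so in that direction. Cux2, a factor specific to female mouse liver, was at 1.60 CPM in knockout males and 91.7 CPM in non-tumour knockout females (−5.86 ± 0.59, edgeR adjusted p = 0.000242), and at 0.230 CPM in wild-type males and 128 CPM in wild-type females. It was the only gene of this list to differ between the knockout sexes, where none of the 8 carriers and 0.392% of all genes passed.

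For each carrier the genes with the most similar pattern over the 14 libraries were found. Likeness was Pearson's r of log2 CPM among 10228 genes of at least 5 CPM, over libraries that share group and clock phase. For Slc10a1 the 2 most alike were Slc31a1 (0.971) and Yme1l1 (0.97). For Slc10a5 they were Gm4756 (0.976) and Tgfbr3l (0.969), for Slco1b2 Ahcyl1 (0.976) and Adh7 (0.941), and for Slco1a4 Nipal1 (0.955) and Atp1b1 (0.938). For Slco1a1 they were Ppp1r15a (0.926) and Gpatch3 (0.917), for Slc22a7 Acsm1 (0.913) and Csrp3 (0.904), and for Slc10a2 Lrg1 (0.917) and Saa1 (0.891). Slco2b1 had the least close, Cdk18 (0.844) and Atp6v0a1 (0.844). No carrier had another carrier among its 2 most alike.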

How the data were processed

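Liver RNA of 14 mouse libraries in 5 groups was analysed. Per the submitters' processing notes, reads were aligned to GRCm38 with HISAT2 2.0.5 and counted with featureCounts 1.5.0-p3. The count values were deposited by the authors as whole counts per gene without scaling. The FPKM values deposited by the authors use gene length and a library total of 0.872 to 1.28 times the sum of the counts, and served as an alternative for levels only. The strand setting is not given in the sources used here.

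The 8 carriers were matched by symbol. The members and the context lists were chosen with earlier results of these data known. All 14 libraries entered 1 model with no covariate in edgeR 4.0.16 (R 4.3.3), with TMM scaling, filterByExpr against low counts (17874 of 54532 genes kept) and the robust quasi-likelihood F test for 7 comparisons. Replicates had a common biological coefficient of variation of 0.442. The procedure was tested on simulated data. All 8 carriers are named, Abcb11 as the targeted gene, list members past the threshold (the 3 with the smallest p where more passed, of which 1 is not reported here), and for each carrier the 2 genes of most similar pattern. Intervals and floors cover counting error only.

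The alternatives were DESeq2 1.42.0 (which the study's design text names), RLE scaling, no low-count filter, leaving each library out, a block for the replicate number, and a fit of only those groups that a comparison sets side by side. A covariate for the clock (mean log2 CPM of Dbp, Per3, Tef and Nr1d2 minus that of Arntl and Npas2) and the block in the 6 tumour and non-tumour libraries were added after seeing the data. Deviations from group means correlated between equally numbered tumour and non-tumour libraries at 0.472, 0.367 and 0.320 over 10229 genes, so the numbers were treated as pairs there. In no other pair of groups did every same-numbered pair exceed 0.1.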

Additional observations from a re-analysis of the deposited data

Results flagged for a closer look

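The knockout effect on Slc10a5 differed between the sexes by the test of the difference itself, at −6.17 on the log2 scale (non-tumour females minus males). It was −1.71 ± 0.60 in females, which did not pass by itself (edgeR adjusted p = 0.12). In males it was 4.46 ± 0.66 (edgeR adjusted p = 0.000666), where clock phase goes with genotype. Wild-type males had only 0 to 28 counts of the gene.

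The knockout effect on Slco1a1 differed between the sexes by the same test, at 2.43. It was −0.14 ± 0.46 in females and −2.57 ± 0.43 in males. It passed in 11 of 17 alternatives, and with the clock covariate it was 2.50 (edgeR adjusted p = 0.164).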

How the results depend on the processing

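The 13 calls of carriers were recomputed 160 times under the alternatives. None turned its direction, 135 stayed past the threshold and 25 missed it. Of 536 recomputed changes that were not called 22 passed and 47 changed sign. Those that changed sign were near 0 or of wide error. The cause was not tested for any of these. TMM and RLE scaling placed the median of all genes 0.11 apart in knockout against wild-type males (0.11 and 0) and 0.11 apart in the wild-type sex comparison (−0.12 and −0.01), and changes of that size carry no direction. Depth limits Slc10a5 in wild-type males (0 to 28 counts) and Slc22a7 in females (18 to 176 counts).

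In non-tumour knockout against wild-type females the count of carriers was 2 without the low-count filter, 2 with DESeq2, 0 with the replicate block and 0 to 1 with a library left out, and the count of all genes (743) was 1739 without the filter, 1942 with DESeq2, 480 with the block and 17 (without wild-type female 3) to 921 with a library left out. For Slco1b2 the adjusted p was 0.0809 without the filter, 0.0782 in the compared groups alone and 0.0636 with the block. In tumour against non-tumour liver 1 carrier, Slc10a5, passed without the filter, and the count of genes was 338 without the filter, 29 with DESeq2, 1 with the replicate block (0 in the 6 libraries alone) and 0 to 42 with a library left out. Carriers called stayed at 0 to 0 with a library left out. In tumours against wild-type females DESeq2 called 3030 genes, and with a library left out 1 to 2 carriers and 157 (without wild-type female 3) to 1378 genes passed.

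In knockout against wild-type males 2262 genes passed in the compared groups alone, 205 genes and 1 carrier (Slc22a7) with the clock covariate, and 4 to 4 carriers and 2462 to 4055 genes with a library left out. For the difference of the knockout effect 6 carriers and 2815 genes passed without the filter, and 4 carriers and 3039 genes with DESeq2. Genes called were 211 with the clock covariate. With a library left out 1 to 2 carriers and 576 to 2604 genes passed. In the wild-type sex comparison 1824 genes passed in the compared groups alone and 1586 with the clock covariate, and 3 to 3 carriers and 1290 to 4775 genes with a library left out. In knockout males against non-tumour females 2 carriers passed without the filter, 2 with DESeq2 and 1 with the clock covariate, beside 700, 470 and 44 genes, with 115 genes in the compared groups alone and 0 to 0 carriers and 19 to 143 genes with a library left out. With the authors' FPKM the sum of the 8 in non-tumour liver was 181.

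Changes of sign were as follows. Slco2b1 in tumours against wild-type females was 0.0069 with RLE, 0.046 without the filter, 0.0067 with DESeq2, 0.0090 in the compared groups alone, 0.033 with the replicate block and −0.21 to 0.27 with a library left out. Slc10a2 in knockout against wild-type males was −0.10 with RLE, −0.050 without the filter, −0.10 with DESeq2, −0.11 in the compared groups alone and −0.43 to 0.98 with a library left out. With the replicate block Slco1a1 in tumours against wild-type females was −0.018 and Slc22a7 in wild-type males against females −0.29. With the clock covariate Slc10a2 was −0.35 for the difference of the knockout effect, −0.020 in wild-type males against females and 0.33 in knockout males against non-tumour females, and Slco2b1 and Slc22a7 in wild-type males against females were 0.0051 and −1.76. With a library left out, non-tumour against wild-type females spanned −0.23 to 0.41 for Slc10a1, −0.41 to 0.26 for Slco1a1, −0.36 to 0.13 for Slco2b1 and −1.19 to 0.30 for Slc22a7. Tumour against non-tumour liver spanned −0.76 to 0.53 for Slc10a2, −0.040 to 0.62 for Slco1a1 and −1.29 to 0.81 for Slc22a7. Tumours against wild-type females spanned −0.18 to 0.54 for Slco1a1, −0.99 to 0.35 for Slco1a4 and −1.55 to 0.016 for Slc22a7. Wild-type males against females spanned −0.14 to 0.27 for Slco1b2, −0.43 to 0.11 for Slco2b1 and −0.20 to 0.46 for Slc22a7, and knockout males against non-tumour females −0.76 to 0.21 for Slc10a2 and −0.14 to 0.43 for Slco1a1. The replicate block changed no other call of a carrier except Slc22a7, whose difference of the knockout effect passed with it (−3.30, edgeR adjusted p = 0.0407).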
